A study of Mus musculus with 2 samples.

Results

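The fatty acid and sterol synthesis genes described here are Acly, Acaca, Fasn, Elovl6, Scd, Srebf1 and Insig1. They were taken by symbol from the feature table and are 7 of its 32883 features. Droplet-based single-cell RNA sequencing (10x Genomics) of lung gave 2 libraries, both labelled wild type. The sham library came from lung after a sham operation, the HIR library from lung taken 6 hours after hepatic ischemia-reperfusion, that is, after blood flow to the liver was stopped and let back in. The question addressed was how lung cells differ after this injury of another organ. Each group had 1 library, so there was no replicate and no test, and all intervals are 95% intervals of the counting error alone.

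In fatty acid synthesis, Acly (ATP citrate lyase) makes cytosolic acetyl-CoA, Acaca (acetyl-CoA carboxylase) turns it into malonyl-CoA and Fasn (fatty acid synthase) builds palmitate from both. Elovl6 lengthens palmitate, and Scd (stearoyl-CoA desaturase) puts the first double bond into saturated fatty acids. Srebf1 encodes SREBP-1, a transcription factor that is held in the endoplasmic reticulum and turns on these enzymes once it is cut and released. Insig1 encodes a membrane protein that holds the SREBP escort there when sterols are plentiful, and is itself a target of the SREBPs. In the lung, alveolar type 2 cells use this pathway to make the phospholipids of surfactant.

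Promoter sequences of the genes are shown first because most of these enzymes share a regulator. Of the 7 genes, 6 matched the RefSeq promoter table of the mouse build GRCm38.p6, in 8 windows of the 250 bases before a transcription start, and Scd did not. The windows are mouse sequence, as the labels name the mouse, while all 32883 features carry rat Ensembl identifiers. The Fasn window lies at chr11:120824548-120824797 on the minus strand and the Insig1 window at chr5:28071162-28071411 on the plus strand. They are printed 5′ to 3′ for an enzyme and a feedback regulator whose levels in type 2-like cells differed little between the libraries. Capitals mark the letters CCAAT on either strand (CCAAT or ATTGG) and the palindrome CACGTG.
Fasn: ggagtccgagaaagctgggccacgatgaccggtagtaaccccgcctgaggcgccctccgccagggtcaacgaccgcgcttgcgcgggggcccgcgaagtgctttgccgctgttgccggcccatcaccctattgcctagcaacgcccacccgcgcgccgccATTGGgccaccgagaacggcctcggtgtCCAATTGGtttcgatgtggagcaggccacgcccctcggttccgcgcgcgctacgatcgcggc
Insig1: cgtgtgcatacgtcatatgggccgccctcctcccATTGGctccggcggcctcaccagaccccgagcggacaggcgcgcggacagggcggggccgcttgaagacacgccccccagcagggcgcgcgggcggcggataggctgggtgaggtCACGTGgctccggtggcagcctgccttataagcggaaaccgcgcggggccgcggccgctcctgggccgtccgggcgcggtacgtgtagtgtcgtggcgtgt
CCAAT, searched on both strands, was in 4 of the 8 windows, against 33.9% of all 32851 windows of this length. In the Fasn window it began 90, 62 and 59 bases before the start, and the last of these overlapped the match before it. CACGTG was in 1 of the 8 windows, that of Insig1, against 6.02% of all. The sterol regulatory element spelled TCACNCCAC was in 0 of the 8 windows and in 1.05% of all, which says only that these letters are not in these windows.

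Transcripts were counted by UMI (unique molecular identifier), 59566745 over 10719 barcodes in sham and 50801778 over 9499 in HIR, and 24 barcodes occurred in both. After filtering, 8574 sham and 7925 HIR cells were kept. Each cell was gated by its own marker genes, none of which is among the 7, and 15 cell types with at least 50 cells in both libraries were compared. They hold 6230 sham and 5783 HIR cells and are called X-like. Neutrophil-like cells were 3.98% of kept sham cells and 18.0% of kept HIR cells. A level is the UMIs of a gene over all UMIs of the type and library, as counts per 1000000 (CPM). A gene counted as measured in a type with at least 20 UMIs over both libraries and a mean of at least 20 CPM, and as apart where the ratio of CPM was at least 1.5-fold. Log2 ratios are HIR over sham after 10 CPM was added to both. Of the 105 pairs of a gene and a type, 35 were measured. Of these, 3 were at least 1.5-fold higher in HIR, 6 at least 1.5-fold lower, and 26 neither. Over all measured features, the share at least 1.5-fold higher ran from 1.36% to 17.7% by type, and the share lower from 1.38% to 15.1%.

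Alveolar type 2-like cells, the surfactant makers, had the highest level of Acly, Fasn, Scd, Srebf1 and Insig1 among the 15 types in both libraries. Scd stood apart from the other measured genes there, 5.31-fold lower in HIR than in sham. Fasn, Acly and Insig1 were within a few percent of their sham level, and Srebf1 was 1.24-fold lower. There were 251 such cells in sham and 201 in HIR, with a median of 13747 and 13767 UMIs per cell. The median cell of both libraries held all 8 type 2 markers.

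Of the enzymes, Acly had 967 UMIs in sham and 730 in HIR type 2-like cells, a level of 254 CPM (238 to 271) against 247 CPM (229 to 265). The ratio of HIR over sham was 0.970 (0.880 to 1.07), and its interval included 1. Fasn had 1350 and 1070 UMIs, or 355 CPM (336 to 374) and 361 CPM (340 to 384). Its ratio was 1.02 (0.939 to 1.10). Neither of these enzymes, which stand before Scd in the pathway, differed between the 2 libraries beyond counting error.

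Scd had 1248 UMIs in sham and 183 in HIR. Its level was 328 CPM (310 to 347) in sham and 61.8 CPM (53.2 to 71.5) in HIR, 5.31-fold lower (4.54 to 6.23), a log2 ratio of -2.24. Of the 3549 features measured in type 2-like cells, 5.55% were at least 1.5-fold higher and 2.37% at least 1.5-fold lower in HIR. None of them had a lower log2 ratio than Scd. For comparison, 1416 features had a lower log2 ratio than Fasn, 1007 a lower one than Acly, 1019 a lower one than Insig1 and 300 a lower one than Srebf1. Scd has near relatives in the feature table, and how the authors' counting divided reads between near-identical copies is not given in the sources used here, so its level and that of Scd2 are uncertain to that extent.

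Acaca had 23 UMIs in sham and 11 in HIR type 2-like cells, 6.05 CPM (3.83 to 9.07) and 3.72 CPM (1.86 to 6.65), under the minimum for a ratio. Elovl6 had 0 UMIs in both, where 3 UMIs would be 0.789 CPM in sham and 1.01 CPM in HIR. Over all kept cells Elovl6 had 1 UMI in sham and 3 in HIR. A difference in Elovl6 was not detectable at this depth in any type.

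Of the regulators, Srebf1 had 262 and 165 UMIs, or 68.9 CPM (60.8 to 77.7) in sham and 55.7 CPM (47.6 to 64.9) in HIR. Its ratio of 0.809 (0.662 to 0.987) was short of 1.5-fold, and its interval left out 1. Insig1 had 588 and 444 UMIs, 155 CPM (142 to 168) in sham and 150 CPM (136 to 165) in HIR, a ratio of 0.970 (0.856 to 1.10). The libraries thus overlapped for Insig1 and were near each other for Srebf1.

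**Figure D1:**
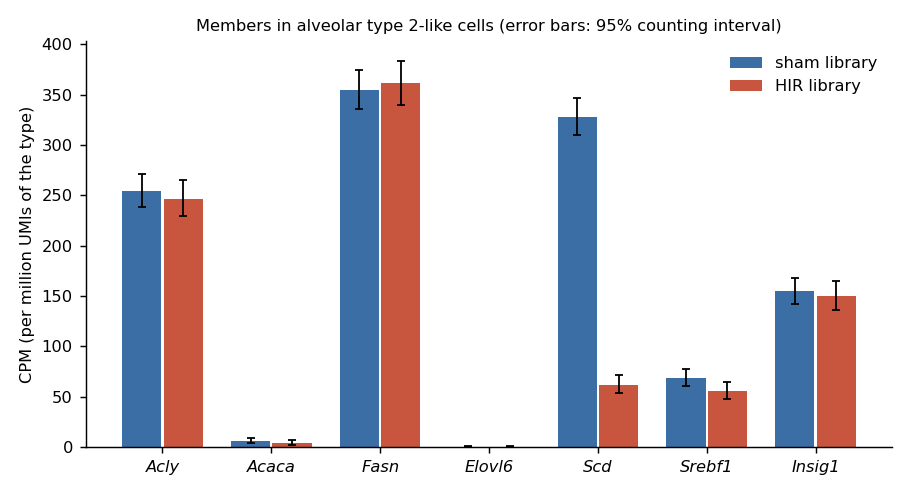
Levels of the 7 genes in alveolar type 2-like cells, as CPM of the cell type (vertical axis, linear from 0), with 1 bar per library and error bars for the 95% counting interval. Scd stands at 328 CPM in sham and 61.8 CPM in HIR, while the bars of Acly, Fasn and Insig1 are level within their error bars.

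The share of type 2-like cells with a Scd UMI was also lower in HIR. At full depth, 79.7% of sham cells (74.2 to 84.5) and 48.8% of HIR cells (41.7 to 55.9) held a Scd UMI. With each cell thinned to 1000 UMIs, which left out 0 sham cells and 1 HIR cell, the shares were 26.3% (21.0 to 32.2) and 4.00% (1.74 to 7.73). Fasn was in 33.5% of thinned cells in both libraries, 84 of 251 and 67 of 200. Thinned shares of Acly were 23.5% and 22.0%, of Insig1 12.0% and 17.0%, and of Srebf1 8.77% and 6.00%, with intervals that overlapped for each.

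Free RNA can put a UMI into a cell that does not express a gene, so the shares were set beside general capillary-like cells, endothelial cells not known for this gene. There, 0.440% of 1592 sham and 0.358% of 1395 HIR cells held a Scd UMI at full depth, with a median of 2972 and 2762 UMIs per cell. After thinning the shares were 0.0642% and 0.0728%. Both type 2-like shares were far above these.

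The single type 2-like cell with the most Scd UMIs held 31 of them in sham and 8 in HIR, 2.48% and 4.37% of all Scd UMIs of the type. The median unthinned count was 3 Scd UMIs per sham cell and 0 per HIR cell, against 4 Fasn UMIs in both. Levels per cell spread widely for Scd, with a 90th percentile of 899 CPM in sham and 169 CPM in HIR. No single cell carried the level of either library.

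**Figure D2:**
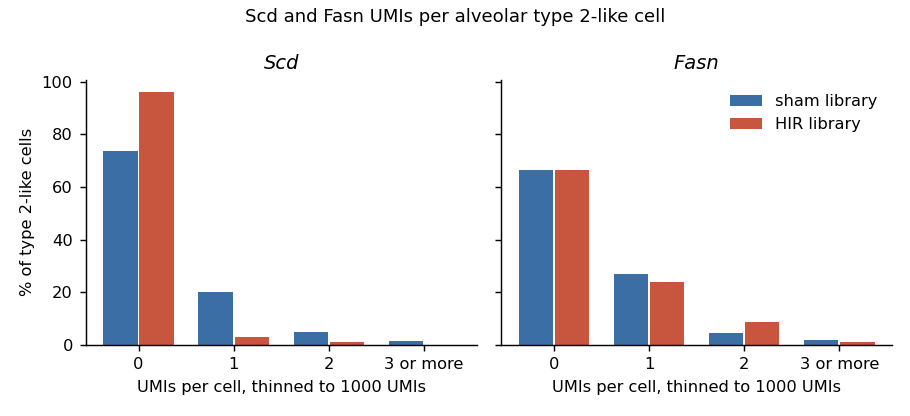
Share of alveolar type 2-like cells (vertical axis, percent) with 0, 1, 2 or at least 3 UMIs of Scd (left) and Fasn (right) after each cell was thinned to 1000 UMIs, 251 sham and 200 HIR cells. For Scd, 73.7% of sham and 96.0% of HIR cells were at 0, whereas for Fasn 66.5% of both were at 0.

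Scd was also read beside Fasn within single cells. Among thinned cells with a Fasn UMI, 29.8% of 84 in sham (20.3 to 40.7) and 4.48% of 67 in HIR (0.933 to 12.5) also held Scd. Among those without Fasn the shares were 24.6% of 167 (18.2 to 31.8) and 3.76% of 133 (1.23 to 8.56). The summed UMIs gave 0.924 Scd UMIs per Fasn UMI in sham and 0.171 in HIR, a ratio of these of 5.41. This value needs no library total, since both genes were counted in the same cells. Within each library, the Scd shares of cells with and without Fasn had overlapping intervals.

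Scd was lower in HIR on both sides of the median depth. In type 2-like cells under 13757 UMIs, the median of both libraries, Scd stood at 415 CPM (381 to 451) in 126 sham cells and 65.8 CPM (51.1 to 83.4) in 100 HIR cells. In cells at or above it, the levels were 280 CPM (260 to 302) and 59.7 CPM (49.3 to 71.6). Shallower sham cells thus had a higher Scd level in CPM than deeper ones. This was not particular to Scd. In sham, Fasn was at 446.6 CPM in shallower and 304.5 CPM in deeper cells, and Acly at 313.3 and 221.7 CPM. Srebf1 was at 87.4 and 58.69 CPM, and Insig1 at 180 and 140.6 CPM.

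A group of cells in the type 2 gate held, in sum, more club marker RNA than type 2 marker RNA. Of the 452 cells in the gate, 419 fell into Leiden cluster 2, led by Sftpc, and 33 into cluster 1, led by the club cell genes Scgb3a2 and Scgb1a1. Club markers summed to 610868 CPM in the 18 sham and 516418 CPM in the 15 HIR cells of cluster 1, against 13953 and 13584 CPM in cluster 2. Type 2 markers summed to 20563 and 10460 CPM in cluster 1, against 52053 and 57929 CPM in cluster 2. The cells of cluster 1 were kept in the other type 2-like values. Within cluster 2 Scd stood at 378 CPM (357 to 400) in 233 sham cells and 69.3 CPM (59.6 to 80.1) in 186 HIR cells. In cluster 1 it had 2 UMIs in sham and 0 in HIR. The Scd difference was as large within the cells of cluster 2 alone, a subset chosen after seeing the data. Neutrophil markers in type 2-like cells, with neutrophil-like cells more frequent in HIR, summed to 56.0 CPM in sham and 163 CPM in HIR, with 4 and 3 of 8 at 0. Their part in the result was not tested.

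Genes of the same pathways were read in the same cells from lists. Of 15 other genes of fatty acid synthesis, 14 were in the table and 7 were measured. Of these, 0 were at least 1.5-fold higher and 3 lower, and the median log2 ratio was -0.40, beside 0.08 over all 3549 measured features. Of those features, 5.55% were higher and 2.37% lower. Scd2, another desaturase of the Scd family, was at 991 CPM (3771 UMIs) in sham and 405 CPM (1199 UMIs) in HIR, 2.45-fold lower (2.29 to 2.61). Fads1, which desaturates polyunsaturated fatty acids, was at 82.8 CPM (315 UMIs) and 38.2 CPM (113 UMIs), 2.17-fold lower (1.75 to 2.71). The remaining one, Tecr, which carries out the last step of the elongation of very long chains, was at 180 and 115 CPM, 1.58-fold lower (1.38 to 1.81). The elongase Elovl1 was at 201 CPM in sham and 294 CPM in HIR, a ratio of 1.46 (1.33 to 1.62), just short of 1.5-fold.

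Of 23 genes of sterol synthesis and uptake, 15 were measured, with a median log2 ratio of -0.15. Of these, 0 were higher and 2 lower, beside 5.55% and 2.37% of all measured features. Tm7sf2, a sterol reductase, was at 71.3 CPM (271 UMIs) in sham and 36.8 CPM (109 UMIs) in HIR, 1.94-fold lower (1.54 to 2.44). Fdps, which makes farnesyl pyrophosphate, was at 579 CPM (2201 UMIs) and 374 CPM (1108 UMIs), 1.55-fold lower (1.44 to 1.66). Srebf2, which encodes the SREBP that mainly serves sterol synthesis, was the one SREBP regulator measured of 5 and was at 75.7 and 76.0 CPM.

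Of 13 genes of glycerolipid assembly, 6 were measured, with a median log2 ratio of 0.15. Of these, 1 was higher and 0 lower, beside 5.55% and 2.37% of all measured features. The higher one, Acsl3, an acyl-CoA synthetase, was at 43.1 CPM in sham and 68.2 CPM in HIR, 1.58-fold higher (1.28 to 1.96). Of 8 genes of LXR, the oxysterol receptor, and its targets, 3 were measured. Beside 2.37% of all measured features, 1 of these was lower. This was Apoe, an apolipoprotein that macrophages also make, at 35.0 CPM (133 UMIs) in sham and 8.45 CPM (25 UMIs) in HIR, 4.14-fold lower (2.69 to 6.63). The lower Apoe was not particular to type 2-like cells. In T cell-like cells it was at 48.6 and 14.2 CPM, 3.41-fold lower (2.17 to 5.59). In alveolar type 1-like cells it was at 351 and 168 CPM, 2.10-fold lower (1.65 to 2.69). Markers of interstitial macrophage in type 2-like cells summed to 14.99 CPM in sham and 7.769 CPM in HIR, with 4 of 8 at 0 in both, and their part in the Apoe value was not tested. The surfactant gene Sftpc was at 193742 and 177953 CPM, the phospholipid transporter gene Abca3 of the lamellar bodies at 90.2 and 91.5 CPM. Of the 5 genes listed for lipid droplets and lamellar bodies, Sftpc among them, 3 were measured in these cells and 0 were apart. The list also holds Lamp3, a marker of the type 2 gate.

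Across the other types, the genes differed in how much of their RNA lay in type 2-like cells. Of all Scd UMIs in kept cells, 83.0% in sham and 65.1% in HIR were in the type 2 gate. For Fasn the shares were 68.0% and 66.0%, for Acly 33.9% and 31.7%, for Srebf1 29.8% and 23.7%, and for Insig1 22.2% and 19.7%. Acly was measured in all 15 types, Insig1 in 13, Fasn and Srebf1 in 3 each, Scd in 1, and Acaca and Elovl6 in 0.

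For Scd, the next level after type 2-like cells in sham was 23.7 CPM (12.2 to 41.4) in plasmacytoid dendritic cell-like cells, followed by 9.002 CPM (5.15 to 14.6) in B cell-like cells. In HIR these 2 types stood at 12.9 CPM (5.56 to 25.4) and 13.1 CPM (7.46 to 21.2), and alveolar type 1-like cells at 14.1 CPM (6.10 to 27.8), with no order among the 3 beyond their intervals. Carried-over type 2 RNA was gauged by Sftpc, which is in no gate. At the Sftpc level of plasmacytoid dendritic cell-like cells, such RNA would bring 0.495 CPM of Scd in sham and 0.0890 CPM in HIR. For B cell-like cells the same estimate gave 0.866 and 0.159 CPM. In alveolar type 1-like cells, with Sftpc at 10570 CPM in sham and 15076 CPM in HIR, it gave 17.9 and 5.24 CPM beside the measured 5.81 and 14.1 CPM. The median alveolar type 1-like cell had Sftpc at 493 CPM in sham and 798 CPM in HIR.

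Fasn had its next level in alveolar type 1-like cells, the flat cells of the air barrier, at 39.2 CPM (25.8 to 57.1) in sham and 47.7 CPM (31.4 to 69.3) in HIR, where the Sftpc estimate was 19.4 and 30.6 CPM. Acly was next highest in plasmacytoid dendritic cell-like cells, at 81.0 CPM (58.1 to 110) in sham and 90.2 CPM (68.1 to 117) in HIR. Below type 2-like cells, neighbours in the order of Acly and of Fasn had overlapping intervals down to the fifth type.

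**Figure D3:**
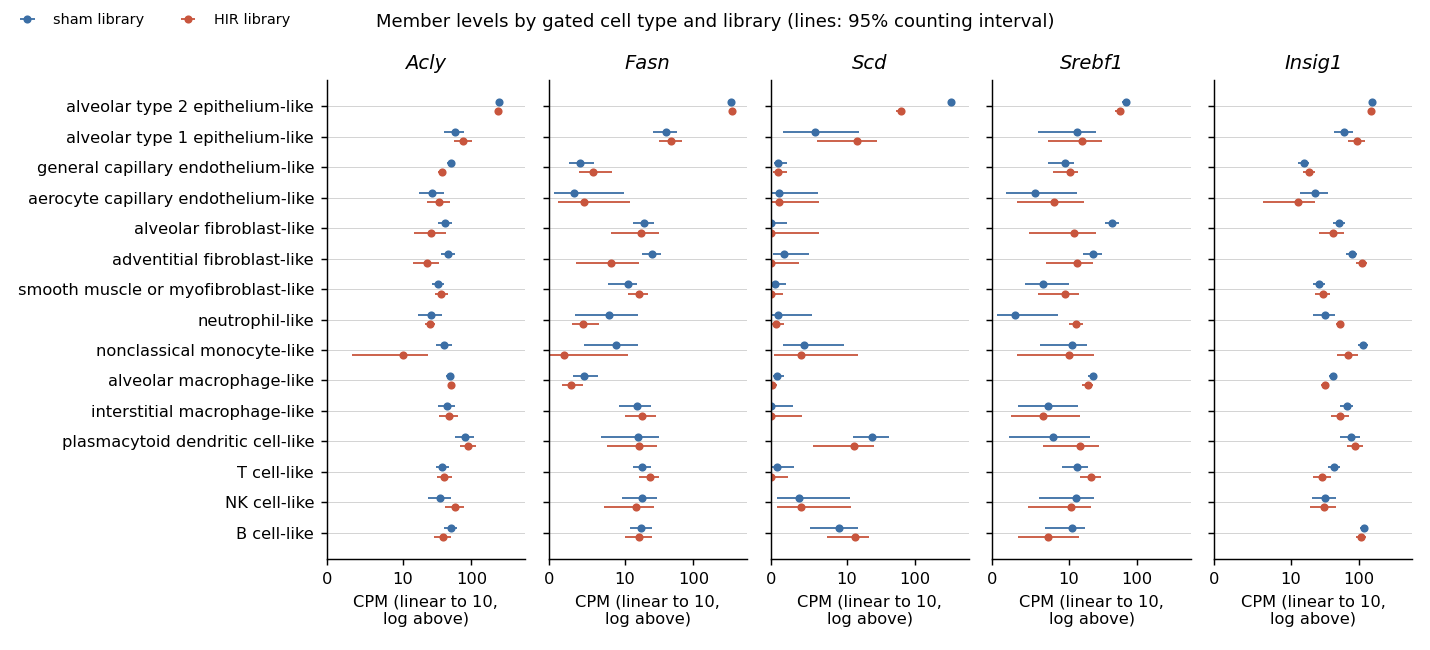
Levels of 5 of the genes in the 15 gated cell types, as CPM (horizontal axis, linear to 10 and log above), with sham in blue, HIR in red and lines for the 95% counting interval. Type 2-like cells are highest in every panel, and the Scd panel holds the widest gap between the libraries within them.

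Insig1 was measured in 13 types. In sham it was 155 CPM in type 2-like, 119 CPM (103 to 136) in B cell-like and 115 CPM (97.7 to 135) in nonclassical monocyte-like cells, the last 2 within each other's interval. Its lowest sham level was 15.5 CPM, in general capillary-like cells. In neutrophil-like cells it had 32 UMIs in 341 sham cells and 308 UMIs in 1425 HIR cells, or 31.5 CPM (21.6 to 44.5) and 52.0 CPM (46.3 to 58.1). This was 1.65-fold higher in HIR (1.14 to 2.45), in a type where 11.8% of 3666 measured features were at least 1.5-fold higher. The ratio was 1.285 with the mean of the CPM of single cells and 1.37 by Leiden clusters, both short of 1.5-fold, and 2.35 with a gate of 4 markers. In thinned cells the Insig1 share was 1.67% in sham and 2.52% in HIR with overlapping intervals, so the difference was not detectable in shares. Median depth was 1698 UMIs per sham and 2684 per HIR neutrophil-like cell.

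In nonclassical monocyte-like cells Insig1 went the other way, from 156 UMIs (115 CPM) in 262 sham cells to 34 UMIs (68.1 CPM, 47.2 to 95.2) in 95 HIR cells, 1.69-fold lower (1.16 to 2.53). Acly had 54 UMIs in sham and 5 in HIR there, 39.8 CPM (29.9 to 52.0) against 10.0 CPM (3.25 to 23.4), 3.98-fold lower (1.60 to 12.7). In this type 15.1% of 4434 measured features were at least 1.5-fold lower. After thinning, Acly was in 4.98% of sham and 4.21% of HIR cells, with overlapping intervals. Of these cells 67.6% in sham and 62.1% in HIR stood at a minimum of the gate, with just 3 markers or a lead of just 1 over the next type. With 4 markers 92 and 46 cells were left, too few for the comparison. The largest ratios of the pathway lists there were lower for Fdps (95.2 to 50.1 CPM), Cyp51 (63.4 to 32.1 CPM), Mylip (137 to 74.1 CPM) and Srebf2 (111 to 60.1 CPM) and higher for Hsd17b12 (15.5 to 38.1 CPM).

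In the fibroblast-like types the lower values were of Srebf1 and Acly. Srebf1 had 74 UMIs in 339 sham and 7 UMIs in 127 HIR alveolar fibroblast-like cells, the cells that neighbour type 2 cells and store lipid. Its level was 43.0 CPM (33.8 to 54.0) in sham and 12.0 CPM (4.81 to 24.7) in HIR, 3.59-fold lower (1.66 to 9.24). In this type 12.5% of 5447 measured features were at least 1.5-fold lower and 17.7% higher. At full depth, 18.6% of sham cells (14.6 to 23.1) and 5.51% of HIR cells (2.24 to 11.03) held a Srebf1 UMI. Median depth was 5100 UMIs per sham and 4481 per HIR cell. In sham this was the second highest Srebf1 level of the 15 types, with an interval apart from those of its neighbours on both sides.

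Acly was at 41.2 CPM (71 UMIs) in sham and 25.7 CPM (15 UMIs) in HIR alveolar fibroblast-like cells, 1.61-fold lower with an interval of 0.912 to 3.02 that included no difference. The ratio of HIR to sham, 0.622, was 0.868 with doublets kept and 0.814 by Leiden clusters, both short of 1.5-fold. In adventitial fibroblast-like cells, which surround vessels and airways, it was at 45.7 CPM (79 UMIs) and 22.5 CPM (22 UMIs), 2.03-fold lower (1.25 to 3.42), where 11.9% of 5015 features were lower. Neutrophil markers summed to 37.8 CPM in sham and 344 CPM in HIR alveolar fibroblast-like cells, and to 37.6 and 428 CPM in adventitial fibroblast-like cells. At 0 were 3 of the 8 in sham and 3 in HIR of the first type, and 3 and 2 in the second. Their part in these results was not tested.

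The pathway lists of alveolar fibroblast-like cells held 7 measured sterol genes, 0 higher and 3 lower, with a median log2 ratio of -0.33 beside 0.06 over all features. Of all 5447 features measured in this type, 17.7% were higher and 12.5% lower. Among the sterol genes Idi1, which makes an isoprenoid building block, was at 54.6 CPM (94 UMIs) in sham and 6.84 CPM (4 UMIs) in HIR. Msmo1, a sterol oxidase, was at 50.5 CPM (87 UMIs) and 15.4 CPM (9 UMIs). The lipid droplet coat gene Plin2 was at 131 CPM (226 UMIs) and 46.2 CPM (27 UMIs), 2.84-fold lower (1.90 to 4.41). Of the LXR list 2 of 5 measured genes were higher, beside 17.7% of all features. They were the cholesterol exporter gene Abca1 at 83.1 and 236 CPM and Mylip, which encodes a ubiquitin ligase, at 20.3 and 66.7 CPM.

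Adventitial fibroblast-like cells had the same 2 LXR targets higher, Abca1 at 45.7 and 178 CPM, 3.90-fold (2.98 to 5.16), and Mylip at 29.5 and 106 CPM, 3.58-fold (2.53 to 5.11). Both were also higher in smooth muscle or myofibroblast-like cells (Abca1 2.36-fold, Mylip 1.52-fold), where 5.79% of features were higher. The same held in alveolar type 1-like cells (1.77-fold and 2.04-fold), where 15.6% were higher. Mylip was also 1.98-fold higher in general capillary-like cells, and lower in neutrophil-like and nonclassical monocyte-like cells. Of 8 measured sterol genes in adventitial fibroblast-like cells, 1 was higher and 3 lower, with a median log2 ratio of -0.33 beside -0.01 over all features. Of the features of this type, 13.3% of 5015 were higher and 11.9% lower. Hmgcs1, which makes the precursor of mevalonate, was at 36.4 and 13.3 CPM, and Idi1 at 69.9 and 35.8 CPM. Sftpc, the tracer of type 2 RNA, was at 1186 CPM in sham and 333 CPM in HIR, though the median cell held 263 and 261 CPM of it. Insig1 was at 77.4 CPM (64.9 to 91.7) and 109 CPM (88.9 to 131), a ratio of 1.40 short of 1.5-fold.

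The remaining pairs that were apart had few UMIs. Insig1 in alveolar type 1-like cells was at 59.5 CPM (41 UMIs) in sham and 91.8 CPM (52 UMIs) in HIR, 1.54-fold higher (1.004 to 2.381), where 15.6% of 5272 features were higher and 9.16% lower. It was the other way round, at a log2 ratio of -0.47, when types were taken from Leiden clusters. Acly in NK cell-like cells was at 35.3 CPM (28 UMIs) and 57.3 CPM (43 UMIs), a ratio of 1.62 (0.985 to 2.71), where 9.73% of 4881 features were higher. With doublets kept its log2 ratio was -0.07, so neither value held across the processing. Neutrophil markers summed to 23.2 CPM in sham and 1876 CPM in HIR alveolar type 1-like cells, with 6 and 2 of 8 at 0, and to 46.7 and 1287 CPM in NK cell-like cells, with 4 and 1 at 0. Their part in these results was not tested. None of the 7 genes, where measured, was apart in the 8 types not yet described: smooth muscle or myofibroblast, both capillary, both macrophage, plasmacytoid dendritic, T and B cell-like cells. The shares of measured features at least 1.5-fold higher and lower in them were 5.79% and 4.18% in smooth muscle or myofibroblast-like, 3.74% and 4.61% in general capillary-like and 9.92% and 8.1% in aerocyte-like cells. They were 1.36% and 1.38% in alveolar and 7.52% and 5.44% in interstitial macrophage-like cells, and 11% and 7.93% in plasmacytoid dendritic cell-like cells. In T cell-like cells they were 5.35% and 2.01%, in B cell-like cells 3.91% and 3.89%.

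Scd2 could be followed beyond type 2-like cells, as it was measured in 14 of the 15 types. It was at least 1.5-fold lower in HIR in 6 of them, higher in 1 and neither in 7. Over the 15 types, the share of all measured features that were lower ran from 1.38% to 15.1%, and of those higher from 1.36% to 17.7%. After type 2-like cells, the Scd2 ratio was lowest in interstitial macrophage-like cells, 54.6 CPM in sham and 25.4 CPM in HIR, 2.15-fold lower (1.32 to 3.61), where 5.44% of 4946 features were lower. In alveolar macrophage-like cells it was at 112 CPM (847 UMIs) and 74.5 CPM (487 UMIs), 1.51-fold lower (1.35 to 1.69), where 1.38% of 4643 features were lower. In aerocyte-like cells, the capillary cells at the gas exchange surface, it was at 19.1 CPM (17 UMIs) and 35.7 CPM (31 UMIs), 1.87-fold higher (1.01 to 3.61), where 9.92% of 5422 features were higher. Smooth muscle or myofibroblast markers summed to 47.1 CPM in sham and 3337 CPM in HIR aerocyte-like cells, with 1 and 0 of 8 at 0, and neutrophil markers to 51.6 and 533 CPM, with 3 and 2 of 8 at 0. Their part in the result was not tested. Fads1, read beside the same range of shares by type, was measured in 4 types and was lower in all 4, with ratios from 0.461 to 0.612. In general capillary-like cells it was at 111 CPM (755 UMIs) and 55.9 CPM (297 UMIs), 1.98-fold lower (1.73 to 2.27), where 4.61% of 5591 features were lower.

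**Figure D4:**
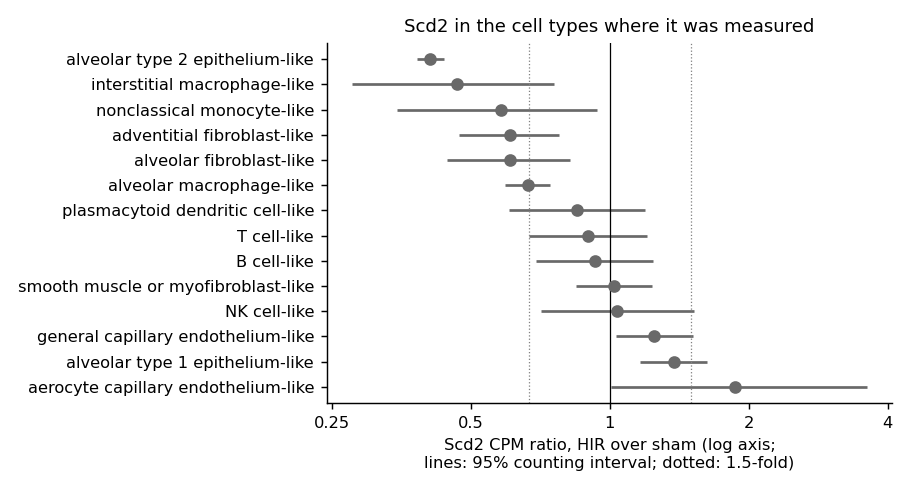
Ratio of Scd2 CPM, HIR over sham (horizontal axis, log scale), in the 14 gated cell types where Scd2 was measured, with lines for the 95% counting interval and dotted lines at 1.5-fold. The ratios run from 0.409 in type 2-like cells to 1.87 in aerocyte-like cells.

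The genes most like the mean of the 7 across the 30 values of 15 types and 2 libraries were sought among 3770 features. By Pearson correlation of log2(CPM + 10), they were Retnla (0.911), S100g (0.905), Sfta2 (0.896), Muc1 (0.890), which is a marker of the type 2 gate, and Defb3 (0.877). The 30 points share libraries, depth and cells, and without the type 2-like points the 5 values were between 0.384 and 0.478. Outside type 2-like cells, the highest level was 6.39 CPM for Retnla, 91.5 for S100g, 52.3 for Sfta2, 54.7 for Muc1 and 327 for Defb3. All but Defb3 thus met the minimum of 100 CPM only through type 2-like cells. Those points also shaped the correlation, so the choice of these genes was partly fixed by the minimum. Retnla, a secreted resistin-like protein, was at 1676 CPM in sham and 477 CPM in HIR type 2-like cells. Of the 7 themselves, Fasn followed the mean of the other 6 most closely, at 0.895 over the 30 points and 0.584 without the type 2-like points.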

How the data were processed

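Per the submitters' processing notes, Cell Ranger 6.0, STAR and Seurat 4.0 were used with the mouse build mm10; the version written in the matrix headers is cellranger 5.0.0. The deposited matrices hold UMI counts, whole numbers per feature and barcode. All 32883 features carry rat Ensembl identifiers.

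The filter asked for 200 genes or more and 20% mitochondrial UMIs or less, and the highest Scrublet scores (scanpy 1.11.5) were left out as doublets at 0.8% per 1000 barcodes. A cell type needed 3 distinct markers, 1 more than any other type of its lineage. A lineage needed 3 and a lead of 2. Of the sham cells, 6613 received a type and 429 neither type nor lineage. Of the HIR cells, 5935 and 528 did so. Intervals of CPM are exact Poisson, of ratios exact conditional binomial and of shares exact Clopper-Pearson at 95%. They cover counting error only. Fewer transcripts per cell and fewer cells with any cannot be told apart where depth is low.

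The 7 genes, the lists and the marker lists were chosen with earlier results of these data known. Named list genes are the 5 with the largest log2 ratios in each type described. Tecr, Elovl1, Srebf2, Acsl3, Sftpc and Abca3 in type 2-like cells, Scd2 and Fads1 across types, and the choice of these for the text, came after their values were seen. Genes most alike were the 5 best of features with 100 CPM in a type and a mean of 20 CPM. Of 225 marker entries 216 matched the table, and of 76 list genes 75. Some list genes are not reported here. Interval code was tested on simulated data.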

Additional observations from a re-analysis of the deposited data

Results flagged for a closer look

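Insig1 had log2 ratios of HIR over sham on opposite sides of 0 in different types: 0.55 in alveolar type 1-like cells and 0.58 in neutrophil-like cells, against -0.68 in nonclassical monocyte-like cells. The difference between these types was not tested, as each value comes from 1 library per group.

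Cells that passed no gate, 429 in sham and 528 in HIR, entered none of the comparisons, and they held Scd at 68.8 CPM (57.1 to 82.1) in sham and 15.6 CPM (10.7 to 22.0) in HIR, from 122 and 32 UMIs. These levels were above the 1.69 and 1.46 CPM that 3 UMIs would give, and 4.41-fold lower in HIR (2.97 to 6.73). Fasn in the same cells was at 78.3 CPM (65.9 to 92.5) and 78.9 CPM (67.2 to 92.0). Whether type 2 cells or their free RNA gave these values was not tested, so they are not a second cell type with lower Scd. For ungated cells the share of all features that were lower was not computed.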

How the results depend on the processing

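No paired analysis was possible because each group has 1 library. Of the values that answer a comparison, 78 alternatives were near the value reported and 8 moved. Pairs at least 1.5-fold higher numbered 5 with a gate of 2 markers, 5 with the mean of the CPM of single cells and 0 at 2-fold, against 3. Lower pairs numbered 10 without mitochondrial, ribosomal protein and hemoglobin genes in the total and 4 at 2-fold, against 6. The share of all type 2-like features that were higher was 1.72% at 2-fold and 18.0% with no minimum beyond 1 UMI in both libraries, and of those lower 0.704% and 13.2%. Acly in NK cell-like cells reversed to a log2 ratio of -0.0698 with doublets kept, and Insig1 in alveolar type 1-like cells to -0.47 by Leiden clusters. The cause was not tested. Of values of single genes, 484 were near, 47 moved and 2 reversed. The log2 ratio of Scd in type 2-like cells ran from -2.41 to -2.19 over all alternatives, of Srebf1 in alveolar fibroblast-like cells from -1.84 to -1.23, and of Acly in nonclassical monocyte-like cells from -1.99 to -0.67. A pair of alternatives, the type 2-like cells of 1 cluster and totals without Sftpc, were chosen after seeing the data. Depth limits Acaca and Elovl6, which were measured in 0 types.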

Other observations

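Neutrophil-like cells held lipid genes that were higher in HIR beside Insig1. Dgat2, which makes triglycerides, was at 140 CPM (142 UMIs) in sham and 462 CPM (2738 UMIs) in HIR, 3.30-fold (2.79 to 3.94), and the lipid droplet coat gene Plin2 at 82.7 and 136 CPM, 1.64-fold (1.31 to 2.08). Of 9 measured sterol genes there, 4 were higher and 1 lower, with a median log2 ratio of 0.41 beside -0.02 over all features, of which 11.8% of 3666 were higher and 14.2% lower. Idi1 was at 49.2 CPM (50 UMIs) and 103 CPM (608 UMIs), and Fdps at 36.4 CPM (37 UMIs) and 72.2 CPM (428 UMIs). Mylip was lower, at 125 and 66.6 CPM. Neutrophil-like cells at a minimum of the gate, with just 3 markers or a lead of just 1 over the next type, were 36.7% of the type in sham and 13.8% in HIR.

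In NK cell-like cells the cholesterol exporter genes Abca1 (7.57 and 50.7 CPM, from 6 and 38 UMIs) and Abcg1 (20.2 and 73.3 CPM, from 16 and 55 UMIs) were higher in HIR, where 9.73% of 4881 features were higher. Of 7 measured sterol genes, 0 were higher and 1 lower, where 12.2% of features were lower. This was Fdps, at 60.6 CPM (48 UMIs) and 32.0 CPM (24 UMIs), 1.89-fold lower (1.14 to 3.23). Alveolar macrophage markers summed there to 100.9 CPM in sham and 317 CPM in HIR, with 3 and 2 of 8 at 0, and neutrophil markers to 46.7 and 1287 CPM, with 4 and 1 of 8 at 0. Their part in these values was not tested. Stromal cells without a type, 812 in sham and 832 in HIR, held Insig1 at 41.5 CPM (99 UMIs) and 75.1 CPM (180 UMIs), 1.81-fold higher (1.41 to 2.34). For this mixed group the share of all features that were higher was not computed. Whether its make-up differed between the libraries was not tested.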
